A study of Arabidopsis thaliana with 18 samples.

Results

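The genes described here are 38 Arabidopsis genes of phenylpropanoid, flavonoid, and anthocyanin synthesis, picked by gene identifier as known enzymes and regulators of these pathways. The rule uses no measured value, but the list was drawn up with earlier results of these data known. They fall into 8 genes of the general phenylpropanoid steps, 9 of the lignin branch, 4 of the early flavonoid steps, 3 flavonol enzymes with 3 flavonol regulators, 6 anthocyanin enzymes with 4 anthocyanin regulators, and 1 gene of the proanthocyanidin branch. All 38 were found among the 33039 genes of the deposited table, and 28 of them passed the filter used for testing (at least 1 TPM in at least 3 of 18 samples), as did 20044 genes in all. The samples were the aboveground parts of wild type Col-0 seedlings that had been inoculated at 9 days with the endophytic fungus Serendipita indica (Si) or kept without it (CK) on PNM plates, and that then stayed at 22, 25, or 28°C until 7 days post inoculation (dpi). All seedlings, CK included, were raised at 22°C on a medium with sucrose under 12 h of light before inoculation. Each of the 6 groups (Si and CK at 3 temperatures) had 3 samples, given as biological replicates, whose numbers of plants or plates are not stated. The fungus colonizes roots, which were not part of the samples. The measured quantity was TPM, a transcript abundance scaled by gene length and by the total of each sample, so that its values can be compared between genes.

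Phenylpropanoid synthesis starts when phenylalanine ammonia-lyase (PAL) removes ammonia from phenylalanine. Cinnamate 4-hydroxylase (C4H) and 4-coumarate:CoA ligase (4CL) then make coumaroyl-CoA, the compound at which the pathways part. One route leads through hydroxycinnamoyl transfer, ring hydroxylation, and methylation to the monolignols of lignin and to sinapate esters, the sunscreens of Arabidopsis leaves. The other starts with chalcone synthase (CHS) and gives flavonols, anthocyanins, and, in the seed coat, proanthocyanidins. Flavonol genes are known targets of MYB12, MYB11, and MYB111, whereas the late anthocyanin genes are known targets of a complex of a MYB protein such as PAP1 or PAP2, a bHLH protein such as TT8, and TTG1.

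The 250 bases before the annotated start of some members are shown first, because genes that carry the same short motif there behaved differently in these samples. The sequences are from the RefSeq annotation and genome of TAIR10.1, and each is printed from 5′ to 3′ on the strand of its gene. The G-box, CACGTG, was found in the windows of 8 of the 38 members, among them CHS, F3H, DFR, UF3GT, and PAP2, and in 6.49% of the windows of all 27443 protein-coding genes. In the windows of PAP2 (chr1:24763691-24763940, plus strand), CHS (chr5:4488226-4488475, plus strand), and DFR (chr5:17166033-17166282, minus strand), the capitals mark the G-box, whose last base lies 41, 228, and 9 bases before the start. PAP2 and CHS were the members with the largest changes with Si at 28°C, whereas DFR stayed below 1 TPM in every sample.
PAP2: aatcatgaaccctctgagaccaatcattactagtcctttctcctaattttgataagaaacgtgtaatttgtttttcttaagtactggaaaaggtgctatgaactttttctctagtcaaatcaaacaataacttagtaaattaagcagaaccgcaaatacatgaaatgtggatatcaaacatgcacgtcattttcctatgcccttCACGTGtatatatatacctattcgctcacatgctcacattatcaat
CHS: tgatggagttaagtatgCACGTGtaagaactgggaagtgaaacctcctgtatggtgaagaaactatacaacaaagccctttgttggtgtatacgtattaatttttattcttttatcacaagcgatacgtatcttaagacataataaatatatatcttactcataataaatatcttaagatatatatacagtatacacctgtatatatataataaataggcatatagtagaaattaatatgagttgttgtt
DFR: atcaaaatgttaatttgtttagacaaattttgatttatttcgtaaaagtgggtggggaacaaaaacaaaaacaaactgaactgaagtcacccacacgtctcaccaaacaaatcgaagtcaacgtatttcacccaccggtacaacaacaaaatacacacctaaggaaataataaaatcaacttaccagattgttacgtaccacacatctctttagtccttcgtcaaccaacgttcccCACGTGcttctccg

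AC elements are short motifs known from promoters of lignin genes. ACCAACC (AC-II) was present in 7 member windows, of which HCT, CYP98A3, CCR1, and CAD5 belong to the lignin branch, and in 2.69% of all windows. ACCTACC (AC-I) was present in 2 member windows (4CL3 and CCoAOMT1, 1.16% of all windows) and ACCTAAC (AC-III) in 0 (2.46% of all windows). TTGACC, a form of the W-box, was present in 4 member windows (12.2% of all windows). All motifs were searched on both strands, and each window printed here held a single match, none of it shared with another motif. Lignin genes with the AC-II element in capitals are shown, HCT (chr5:19838236-19838485, minus strand), CAD5 (chr4:16388941-16389190, minus strand), and CYP98A3 (chr2:17060653-17060902, minus strand). HCT and CAD5 were upregulated with Si, whereas CYP98A3 was no DEG with Si at any temperature. A match describes the letters of the window only.
HCT: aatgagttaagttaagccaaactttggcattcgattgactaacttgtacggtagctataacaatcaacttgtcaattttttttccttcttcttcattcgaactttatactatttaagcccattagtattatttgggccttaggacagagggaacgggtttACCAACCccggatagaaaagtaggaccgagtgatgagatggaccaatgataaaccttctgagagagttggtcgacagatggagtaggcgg
CAD5: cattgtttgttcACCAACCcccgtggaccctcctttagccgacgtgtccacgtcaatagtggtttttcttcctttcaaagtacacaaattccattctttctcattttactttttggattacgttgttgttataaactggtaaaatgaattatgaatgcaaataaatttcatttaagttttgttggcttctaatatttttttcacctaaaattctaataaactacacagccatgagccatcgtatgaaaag
CYP98A3: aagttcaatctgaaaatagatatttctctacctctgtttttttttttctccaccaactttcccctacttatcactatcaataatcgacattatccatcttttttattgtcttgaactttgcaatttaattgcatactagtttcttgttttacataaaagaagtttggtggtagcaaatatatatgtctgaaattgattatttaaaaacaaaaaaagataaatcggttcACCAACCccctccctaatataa

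TPM keeps no read depth, so the counting error of a value is unknown and its precision rests on the spread among 3 replicates. Each sample had 17531 to 19509 genes at 1 TPM or more, and replicates of the same group correlated across genes (which are not independent) with Pearson coefficients from 0.975 to 0.984. The leaf markers RBCS1A, LHCB1.1, LHCA1, CA1, and GLDP1 were all present. Their summed level was 25571 to 27066 TPM in CK and 25193 to 26335 TPM in Si at 22°C, at 25°C 24667 to 25503 TPM in CK and 22344 to 23515 TPM in Si, and at 28°C 22539 to 24137 TPM in CK and 17767 to 18818 TPM in Si, so that the Si samples lay below the CK samples at 25 and 28°C. LHCA1 and LHCB1.1, genes of the light-harvesting antennae, fell with Si at each temperature, LHCA1 by -1.34, -1.44, and -1.26 and LHCB1.1 by -2.15, -0.65, and -0.48. By the adjusted p, 1 of the 5 leaf markers rose and 3 fell at 22°C, and 0 rose and 4 fell at 25 and at 28°C. RBCS1A, the most abundant of the 5, was higher in Si at 22°C, with 15207 to 16871 TPM in CK and 17595 to 19374 TPM in Si. At 25°C it had 14888 to 15488 TPM in CK and 16225 to 17053 TPM in Si, and at 28°C the groups overlapped. Of 7 root markers 2 passed the filter, and COBL9 and LRX1, genes of root hairs, were at most 0.12 TPM. The summed root markers, nearly all of them PYK10, ran from 152 to 225 TPM (CK) and from 287 to 332 TPM (Si) at 22°C, from 261 to 275 and from 507 to 552 TPM at 25°C, and from 748 to 778 and from 876 to 889 TPM at 28°C, and were thus higher with Si and with warmth. CASP1, the other root marker that was tested, went the other way with Si, by -0.11, -0.40, and -1.29 (adjusted p = 0.711, 0.147, and 0.000271). The part of the leaf and root markers in the results below was not tested. In these bulk samples, fewer cells of a type and less RNA per cell cannot be told apart. Some abundant genes (5 of 3387 with a median of at least 50 TPM) are listed at exactly 0 in a sample, so a value of 0 is reported as listed at 0. Fold changes below are differences of mean log2(TPM + 1), which understate the change of genes near 1 TPM. A gene is said to rise or fall where its adjusted p was at most 0.05 in limma, and is called a DEG where its log2 fold change also passed 1 in size.

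With Si most of the tested pathway genes rose, and more of them passed the threshold at the warmer temperatures. At 22, 25, and 28°C, 3, 10, and 12 of the 28 tested members were upregulated DEGs, and 0 were downregulated at any temperature. Among all 20044 genes tested, 8.00, 9.43, and 7.95% were upregulated DEGs at these temperatures, and 1.34, 2.69, and 1.72% were downregulated DEGs, so that at 22°C the members' count was close to that of all genes in its share. By the adjusted p alone, 18, 22, and 24 members rose and 1 (MYBL2) fell at each temperature, against 47.4, 47.8, and 43.5% of all genes that rose and 10.7, 13.5, and 11.9% that fell. CAD5, UGT78D1, and PAP2 were upregulated DEGs at all 3 temperatures, and 15 members were so at 1 or more. MYB111, 4CL3, and FLS1 reached 1 TPM in Si samples only, with at most 0.61, 0.72, and 0.91 TPM in CK. 4CL2 would not have passed the filter on its CK samples alone. These members entered the test through the group where they are high, so their part in the counts is not independent of the filter. Over all genes tested, the log2 fold change had a median of 0.26, 0.26, and 0.22, a shift against which the values stand. After median-of-ratios scaling, which removes it, 2, 6, and 8 members were upregulated DEGs (4.96, 5.72, and 5.18% of all genes) and 0, 1, and 1 (MYBL2) downregulated (2.52, 4.23, and 2.66%). By the adjusted p alone 13, 21, and 21 members then rose and 3, 3, and 2 fell, while 24.5, 27.7, and 23.0% of all genes rose and 25.7, 28.0, and 24.5% fell. After both this scaling and quantile normalization, CAD5 at 22°C, 4CL1, CAD4, CAD5, and 3AT1 at 25°C, and 4CL1, 4CL3, COMT1, and F3H at 28°C no longer passed the fold threshold. The count at 22°C was 5 without Si replicate 3 at 22°C, the Si sample of that temperature with the lowest sums of the general and lignin genes.

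**Figure D1:**
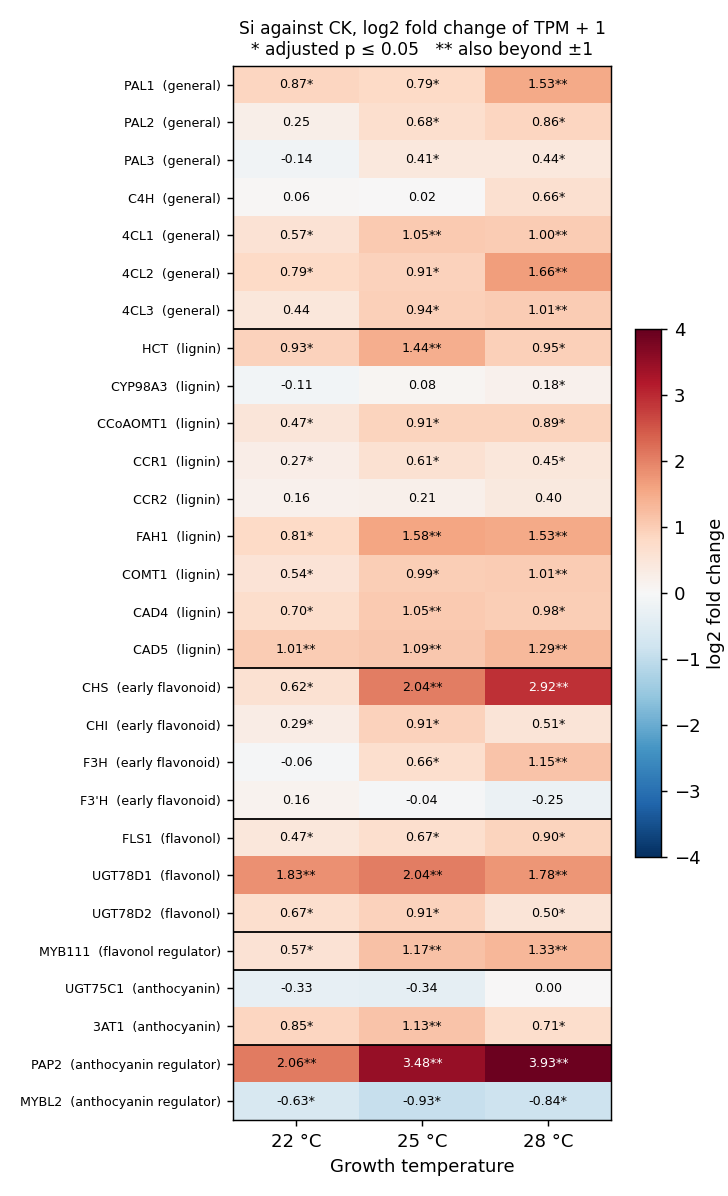
Log2 fold changes of Si against CK (columns, 22, 25, and 28°C) for the 28 tested members (rows, grouped by branch), with 1 asterisk for an adjusted p of at most 0.05 and 2 where the change also passed 1 in size. PAP2, CHS, and UGT78D1 have the darkest red cells, up to 3.93 for PAP2 at 28°C, and MYBL2 is the only member below -0.5.

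Among the general phenylpropanoid genes, PAL1, 4CL1, 4CL2, and 4CL3 were upregulated DEGs at 28°C, and 4CL1 also at 25°C. PAL1 (AT2G37040, chr2:15557367-15560755), a main PAL isoform, had 6.39, 6.40, and 6.89 TPM in CK and 13.4, 17.8, and 8.74 TPM in Si at 22°C. At 25°C it had 7.44, 11.1, and 10.6 TPM in CK and 16.2, 19.5, and 16.2 TPM in Si, and at 28°C 9.30, 10.4, and 13.3 TPM in CK and 34.5, 31.1, and 34.0 TPM in Si. The Si and CK samples did not overlap at any temperature, and the 3 Si samples at 28°C were the highest of all. Its log2 fold changes were 0.87, 0.79, and 1.53 (SE 0.19, adjusted p = 0.00122, 0.00232, and 1.03e-05). PAL1 and PAL2 are 84.7% identical over 2084 aligned transcript bases, and how reads shared between them were counted is not given in the sources used here. PAL2, its close homolog, was at 13.4, 10.9, and 13.7 (22°C), 11.4, 14.4, and 13.5 (25°C), and 16.1, 17.1, and 16.8 TPM (28°C) in CK. In Si, PAL2 was at 18.8, 15.9, and 11.6 (22°C), 20.3, 22.1, and 22.1 (25°C), and 28.6, 32.5, and 31.9 TPM (28°C). The groups overlapped at 22°C and separated at 25 and 28°C, with log2 fold changes of 0.25, 0.68, and 0.86 (adjusted p = 0.121, 0.000391, and 6.77e-05). PAL4 was below 1 TPM in every sample.

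PAL3 was the only downregulated DEG in any comparison of the unscaled values. In CK it had 15.1, 12.5, and 11.0 (22°C), 6.76, 9.15, and 7.73 (25°C), and 5.21, 5.95, and 5.65 TPM (28°C), so that no CK sample at 28°C reached the lowest CK sample at 22°C. In Si it had 10.2, 11.7, and 12.6 (22°C), 10.6, 10.4, and 11.2 (25°C), and 6.59, 7.52, and 9.97 TPM (28°C). From 22 to 28°C it fell by 1.06 on the log2 scale in CK (SE 0.14, adjusted p = 2.41e-05), and the change was -0.95 without CK replicate 1 at 22°C. With Si it changed by -0.14, 0.41, and 0.44 at 22, 25, and 28°C, and rose by the adjusted p at the warmer temperatures only (adjusted p = 0.387, 0.0174, and 0.0142). After median-of-ratios scaling it fell by 0.42 at 22°C (adjusted p = 0.0134), and neither later value passed the test.

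C4H, the cytochrome P450 of the second step, was abundant. CK samples had 46.6, 46.6, and 48.0 (22°C), 54.0, 59.6, and 61.5 (25°C), and 59.1, 63.2, and 68.1 TPM (28°C), and Si samples had 51.5, 57.1, and 39.8 (22°C), 53.5, 61.5, and 63.1 (25°C), and 99.0, 94.8, and 108 TPM (28°C). The groups overlapped at 22 and 25°C and stood apart at 28°C, where every Si sample was above every CK sample. Its change with Si was 0.06, 0.02, and 0.66, and only the value at 28°C passed the test (adjusted p = 9.16e-05).

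Of the 4CL genes, 4CL1 is the most abundant here, with 34.5, 28.5, and 25.7 (22°C), 25.9, 30.4, and 25.4 (25°C), and 38.8, 38.7, and 35.9 TPM (28°C) in CK. Its Si samples had 49.5, 48.0, and 36.2 (22°C), 56.1, 58.7, and 56.7 (25°C), and 76.2, 74.1, and 79.8 TPM (28°C), all above the CK samples of the same temperature. The changes were 0.57, 1.05, and 1.0 (SE 0.11, adjusted p = 0.00046, 1.18e-06, and 3.21e-06). At 28°C the value stood at the threshold, and it was 0.97 without replicate 3 of CK at 28°C or replicate 3 of Si at 28°C. 4CL2 was low in CK, with 0.26, 0, and 0 (22°C), 0.24, 0.09, and 0.58 (25°C), and 0.99, 1.50, and 1.12 TPM (28°C), and it had 1.20, 0.86, and 0.60 (22°C), 0.94, 1.31, and 2.16 (25°C), and 5.74, 4.64, and 7.78 TPM (28°C) in Si. It changed by 0.79, 0.91, and 1.66 with Si (adjusted p = 0.00515, 0.00176, and 1.26e-05), and the Si samples lay above the CK samples at each temperature. Its ratio of mean TPM between Si and CK was 10.2, 4.85, and 5.03, largest at 22°C, where CK was near 0. 4CL3, the isoform linked to flavonoids, had 0.71, 0.33, and 0.40 (22°C), 0.32, 0.31, and 0.22 (25°C), and 0.32, 0.58, and 0.72 TPM (28°C) in CK and 0.81, 1.66, and 0.65 (22°C), 1.74, 1.09, and 1.60 (25°C), and 1.65, 2.48, and 2.17 TPM (28°C) in Si. The groups overlapped at 22°C only, and the changes were 0.44, 0.94, and 1.01 (adjusted p = 0.0572, 0.000493, and 0.000355), with 0.90 to 0.99 at 28°C without replicate 1 of CK at 28°C or replicate 2 or 3 of Si at 28°C.

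In the lignin branch, FAH1 had the largest change at 25 and 28°C, HCT came next at 25°C, and CAD5 was a DEG at all temperatures but, after either scaling, only at 28°C. FAH1 (ferulate 5-hydroxylase, AT4G36220, chr4:17137313-17139777), which leads to syringyl lignin and sinapate esters, had 27.7, 20.5, and 22.8 TPM in CK and 47.9, 43.6, and 35.4 TPM in Si at 22°C. It had 23.9, 23.0, and 22.3 TPM in CK and 68.2, 74.7, and 70.0 TPM in Si at 25°C, and 33.2, 30.5, and 29.3 TPM in CK and 90.5, 94.2, and 89.1 TPM in Si at 28°C. The lowest Si sample was above the highest CK sample at each temperature. The log2 fold changes were 0.81, 1.58, and 1.53 (SE 0.10, adjusted p = 1.03e-05, 9.07e-09, and 2.33e-08). HCT (hydroxycinnamoyl-CoA shikimate transferase, AT5G48930, chr5:19836299-19838235), which opens the lignin route, had 31.8, 28.0, and 26.5 TPM in CK and 63.7, 56.4, and 47.6 TPM in Si at 22°C. At 25°C it was at 28.9, 31.5, and 31.6 TPM in CK and 87.1, 89.1, and 79.0 TPM in Si, and at 28°C at 50.1, 49.8, and 46.1 TPM in CK and 99.4, 94.7, and 90.1 TPM in Si. Si and CK did not overlap, and the change of 1.44 ± 0.09 (SE, adjusted p = 6.15e-09) at 25°C was the only one of the 3 past the threshold on the fold change, beside 0.93 at 22°C and 0.95 at 28°C. CK itself was higher at 28 than at 22°C for HCT, by 0.74 (adjusted p = 1.5e-05).

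COMT1 and CCoAOMT1 are the methyltransferases of the branch. COMT1 had 56.8, 57.9, and 53.6 (22°C), 53.7, 61.8, and 63.2 (25°C), and 82.7, 75.9, and 71.9 TPM (28°C) in CK. In Si it had 90.8, 90.0, and 67.8 (22°C), 119, 125, and 113 (25°C), and 164, 148, and 153 TPM (28°C), with no overlap at any temperature. Its changes were 0.54, 0.99, and 1.01 (SE 0.10, adjusted p = 0.000217, 4.94e-07, and 7.4e-07), and at 28°C the value was 0.96 to 1.0 without replicate 2 or 3 of CK at 28°C or replicate 1 of Si at 28°C. CCoAOMT1, the most abundant member of the lignin branch, had 137, 115, and 111 (22°C), 116, 122, and 118 (25°C), and 140.0, 132, and 126 TPM (28°C) in CK. Its Si samples had 183, 163, and 157 (22°C), 235, 232, and 206 (25°C), and 269, 225, and 245 TPM (28°C). All 3 changes passed the adjusted p and none passed 1, at 0.47, 0.91, and 0.89 (adjusted p = 0.000238, 3.22e-07, and 7.06e-07).

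The last step to monolignols is made by cinnamyl alcohol dehydrogenases. CAD5 had 7.56, 6.94, and 5.14 (22°C), 12.4, 8.69, and 10.4 (25°C), and 18.8, 22.0, and 17.7 TPM (28°C) in CK and thus rose with warmth even without the fungus. In Si it had 15.1, 17.6, and 10.5 (22°C), 20.0, 26.4, and 23.7 (25°C), and 50.7, 41.8, and 55.2 TPM (28°C). The changes with Si were 1.01, 1.09, and 1.29 (SE 0.18, adjusted p = 0.000209, 8.89e-05, and 2.66e-05), with 0.86 to 0.97 without replicate 3 of CK at 22°C or replicate 1 or 2 of Si at 22°C, and 0.97 to just under 1 at 25°C without replicate 2 of CK at 25°C or replicate 2 of Si at 25°C. CAD4, which shares this function, had 28.4, 26.6, and 23.4 (22°C), 22.5, 23.6, and 20.6 (25°C), and 24.8, 23.2, and 24.2 TPM (28°C) in CK, where the temperatures overlapped. Its Si samples had 43.7, 44.8, and 40.4 (22°C), 49.4, 47.9, and 44.3 (25°C), and 49.4, 47.3, and 48.5 TPM (28°C), and the changes were 0.70, 1.05, and 0.98 (SE 0.07, adjusted p = 1.01e-06, 1.07e-08, and 4.32e-08).

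Other lignin genes were no DEGs with Si. CYP98A3, which hydroxylates the ester that HCT makes, had 46.9, 45.6, and 46.8 (22°C), 43.7, 48.4, and 45.1 (25°C), and 50.6, 48.0, and 45.2 TPM (28°C) in CK. Si samples were at 45.4, 44.6, and 39.0 (22°C), 48.1, 48.8, and 47.5 (25°C), and 56.7, 53.4, and 52.6 TPM (28°C). The changes were -0.11, 0.08, and 0.18, and only that at 28°C passed the test (adjusted p = 0.0222). After median-of-ratios scaling they were -0.41, -0.22, and -0.07, of which those at 22 and 25°C passed it. CCR1, the cinnamoyl-CoA reductase of lignifying tissue, ranged from 30.2 to 77.1 TPM and rose by 0.27, 0.61, and 0.45 (adjusted p = 0.0161, 2.72e-05, and 0.000574), at no temperature past 1. It overlaps the oppositely oriented AT1G15960 over 473 transcript bases, a gene at 1.14 to 8.32 TPM, and whether counting used strand is not given in the sources used here. CCR2, known from defense responses, ranged from 0.38 to 3.55 TPM and passed no test between Si and CK (changes of 0.16, 0.21, and 0.40, adjusted p = 0.654, 0.546, and 0.251). CCR2 overlaps the oppositely oriented AT1G80830 over 132 transcript bases, and CYP98A3 overlaps AT2G40880 over 70. The levels of these 2 neighbours were not looked at.

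Markers of xylem, the tissue that makes most lignin, were low in these shoots, and 5 of 6 passed the filter. Their summed level was 18.4 to 31.9 TPM in CK and 21.6 to 28.9 TPM in Si at 22°C. At 25°C it was 20.3 to 29.1 TPM in CK and 33.3 to 45.1 TPM in Si, and at 28°C 38.3 to 52.1 TPM in CK and 45.9 to 61.3 TPM in Si. The cellulose synthases of the secondary wall IRX1, IRX3, and IRX5 changed by -0.08 to 0.29 with Si, and none passed the test. XCP1, a xylem peptidase, rose by 0.78, 1.69, and 0.90 (adjusted p = 0.0107, 1.95e-05, and 0.00479), and VND7, a master regulator of vessels, was below 0.5 TPM throughout. XCP2, another xylem peptidase and the most abundant of these markers, passed no test with Si. In CK it had 20.4, 19.1, and 11.7 (22°C), 13.4, 19.8, and 15.2 (25°C), and 23.8, 30.8, and 33.7 TPM (28°C). Its Si samples had 16.4, 15.9, and 11.7 (22°C), 18.8, 23.6, and 27.4 (25°C), and 26.1, 32.9, and 34.3 TPM (28°C). The part of these markers in the result was not tested.

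Summed over the enzyme genes of each branch, the lignin branch had the highest level in every group. Its sum was 341 ± 25.7 TPM (SD, n = 3) for CK and 489 ± 50.5 TPM for Si at 22°C. At 25°C it was 349 ± 8.97 TPM in CK and 677 ± 30.5 TPM in Si, and at 28°C 436 ± 17.6 TPM and 817 ± 40.3 TPM. The sum of the flavonol enzymes was 10.6 ± 1.33, 14.0 ± 0.83, and 23.2 ± 1.16 TPM in CK and 28.1 ± 3.51, 42.4 ± 2.68, and 55.5 ± 1.72 TPM in Si (SD, n = 3). The 6 anthocyanin enzymes together reached 2.52 ± 0.63, 3.30 ± 0.99, and 4.33 ± 0.63 TPM in CK and 4.31 ± 0.75, 6.68 ± 0.57, and 7.64 ± 1.36 TPM in Si, most of it from 3AT1 and UGT75C1. The median log2 fold change over all members of a branch was 0.34, 0.73, and 0.93 for the general genes at 22, 25, and 28°C, 0.54, 0.99, and 0.95 for lignin, 0.22, 0.79, and 0.83 for early flavonoid genes, 0.67, 0.91, and 0.90 for flavonol enzymes, and 0.28, 0.27, and 0.08 for anthocyanin enzymes, beside 0.26, 0.26, and 0.22 over all genes tested and 0.16, 0.15, and 0.15 without the filter. Of the 6 anthocyanin enzymes 4 lie below the filter, where the pseudocount sets the size of a change. With a pseudocount of 0.1 the anthocyanin medians were 1.27, 1.43, and 0.53, above those of the general (0.76) and flavonol (0.89) genes at 22°C, so the order of the branches depends on it. The early flavonoid median at 22°C was -0.03 after median-of-ratios scaling and -0.17 after quantile normalization. These medians are a description of few genes each and were not tested.

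**Figure D2:**
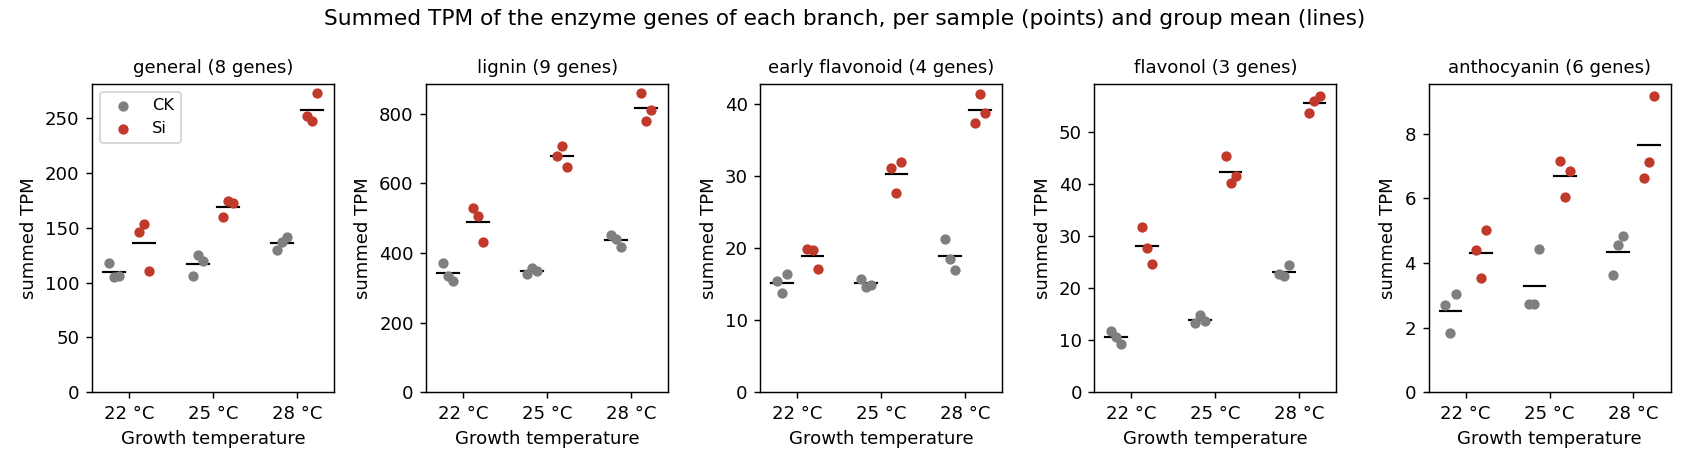
Summed TPM of the enzyme genes of 5 branches in each sample (points, CK grey and Si red) at 22, 25, and 28°C, with lines at the group means of 3 samples and axes that start at 0. The Si points lie above the CK points of the same temperature in the lignin, early flavonoid, flavonol, and anthocyanin panels, and the vertical scales differ by more than an order of magnitude between lignin and anthocyanin.

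CHS, the enzyme that commits coumaroyl-CoA to flavonoids, rose with temperature in Si while CK stayed low. CHS (AT5G13930, chr5:4488476-4490264), whose G-box window is printed above, had 1.53, 0.99, and 1.46 TPM in CK and 2.59, 3.01, and 2.11 TPM in Si at 22°C. It had 1.04, 0.94, and 0.68 TPM in CK and 7.36, 5.10, and 8.06 TPM in Si at 25°C. At 28°C it had 1.26, 1.28, and 1.04 TPM in CK and 14.9, 18.8, and 13.4 TPM in Si. CK stayed between 0.68 and 1.53 TPM in all 9 samples, and the Si samples rose from each temperature to the next without overlap. The ratio of mean TPM between Si and CK was 1.94, 7.71, and 13.2, and the log2 fold changes were 0.62, 2.04, and 2.92 (SE 0.16, adjusted p = 0.00427, 5.89e-08, and 4.75e-09).

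F3H (flavanone 3-hydroxylase) fell with warmth in CK and not in Si. CK samples had 2.24, 1.84, and 2.12 (22°C), 1.41, 1.09, and 1.03 (25°C), and 0.95, 0.95, and 0.72 TPM (28°C), and Si samples had 1.75, 2.50, and 1.62 (22°C), 2.82, 1.83, and 2.77 (25°C), and 3.37, 2.93, and 3.20 TPM (28°C). From 22 to 28°C it fell by 0.71 in CK (adjusted p = 0.000812) and rose by 0.51 in Si (adjusted p = 0.00818). The rise in Si was 0.34 (adjusted p = 0.0685) after median-of-ratios scaling and 0.16 (adjusted p = 0.39) after quantile normalization. Si and CK overlapped at 22°C and not at 25 or 28°C, with changes of -0.06, 0.66, and 1.15 (SE 0.14, adjusted p = 0.731, 0.000805, and 8.02e-06). F3H overlaps the oppositely oriented AT3G51238 over 578 bases, but that gene is listed at 0 in all samples except 1 with 0.12 TPM. CHI (chalcone isomerase) had 8.47, 6.88, and 8.42 (22°C), 8.11, 7.14, and 9.09 (25°C), and 11.5, 9.54, and 8.99 TPM (28°C) in CK and 10.5, 9.65, and 9.56 (22°C), 15.8, 15.4, and 17.1 (25°C), and 13.9, 13.8, and 16.4 TPM (28°C) in Si. Its changes of 0.29, 0.91, and 0.51 passed the adjusted p at all temperatures (0.0272, 2.78e-06, and 0.000784) and reached 1 at none. F3'H (flavonoid 3'-hydroxylase) ranged from 3.15 to 7.50 TPM and changed by 0.16, -0.04, and -0.25 with Si, with no test passed (adjusted p = 0.326, 0.805, and 0.12).

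Among the flavonol genes, UGT78D1 was a DEG at all temperatures, with changes between 1.78 and 2.04. UGT78D1 (AT1G30530, chr1:10814612-10816615), which adds rhamnose to the 3 position of flavonols, had 4.23, 4.22, and 3.37 TPM in CK and 20.2, 15.3, and 14.6 TPM in Si at 22°C. At 25°C the samples were at 5.08, 5.80, and 5.11 TPM in CK and 26.3, 24.4, and 24.1 TPM in Si, and at 28°C at 8.99, 8.09, and 11.0 TPM in CK and 33.0, 34.6, and 35.3 TPM in Si. Every Si sample was above every CK sample of all temperatures. The changes were 1.83, 2.04, and 1.78 (SE 0.12, adjusted p = 1.81e-08, 2.88e-09, and 1.95e-08). UGT78D2, which adds glucose at the same position of flavonols and anthocyanidins, had 7.02, 5.77, and 5.23 (22°C), 7.82, 8.39, and 7.90 (25°C), and 13.0, 13.7, and 12.6 TPM (28°C) in CK. With 9.94, 11.3, and 9.06 (22°C), 17.6, 14.5, and 15.9 (25°C), and 19.0, 18.6, and 19.3 TPM (28°C) in Si, it rose by 0.67, 0.91, and 0.50 (adjusted p = 2.89e-05, 9.67e-07, and 0.000385). The groups did not overlap at any temperature, although no change reached 1. FLS1 (flavonol synthase) ranged from 0.36 to 2.84 TPM and rose by 0.47, 0.67, and 0.90 (adjusted p = 0.0158, 0.00136, and 0.00015).

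Of the flavonol regulators, only MYB111 passed the filter, and it reached 1 TPM in Si samples only. It had 0.07, 0.10, and 0.14 TPM in CK and 1.15, 0.58, and 0.28 TPM in Si at 22°C. It was at 0.19, 0.22, and 0.25 TPM in CK and 1.95, 1.55, and 1.74 TPM in Si at 25°C and at 0.42, 0.35, and 0.61 TPM in CK and 2.57, 2.50, and 2.96 TPM in Si at 28°C. The Si samples were above the CK samples at each temperature, but all values stayed below 3 TPM. The log2 fold changes were 0.57, 1.17, and 1.33 (SE 0.16, adjusted p = 0.00725, 1.59e-05, and 6.98e-06), and after quantile normalization it was no DEG at any temperature. Its ratio of mean TPM between Si and CK was 6.48, 7.94, and 5.82 and thus did not climb in the same way. MYB12 reached at most 0.26 TPM and MYB11 at most 0.09 TPM in any sample.

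**Figure D3:**
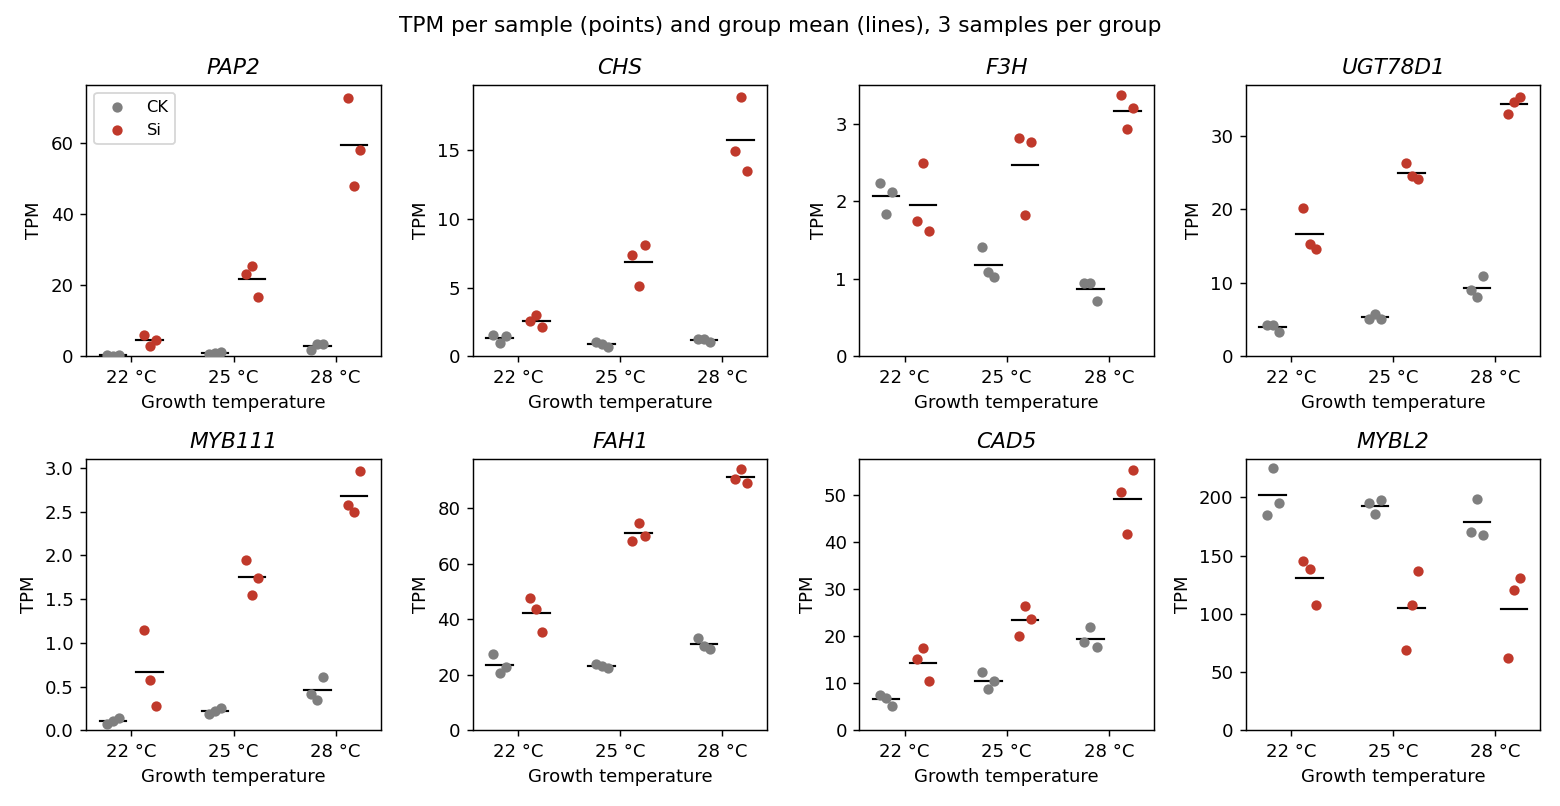
TPM of PAP2, CHS, F3H, UGT78D1, MYB111, FAH1, CAD5, and MYBL2 in each of the 18 samples (points, CK grey and Si red) by growth temperature, with lines at the mean of 3 samples and axes that start at 0. PAP2 and CHS climb with temperature in Si while CHS in CK stays below 2 TPM, and in the MYBL2 panel the Si points lie below the CK points.

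PAP2, also called MYB90, an activator of anthocyanin genes, had the largest fold change of all tested members at every temperature. PAP2 (AT1G66390, chr1:24763941-24765541) had 0.38, 0.12, and 0.38 TPM in CK and 6.13, 2.98, and 4.50 TPM in Si at 22°C. It had 0.76, 1.02, and 1.32 TPM in CK and 23.3, 25.4, and 16.8 TPM in Si at 25°C, and 1.91, 3.56, and 3.51 TPM in CK and 72.6, 47.8, and 58.1 TPM in Si at 28°C. No Si sample overlapped a CK sample of its temperature, and the mean in Si went from 4.54 ± 1.58 TPM at 22°C to 21.8 ± 4.45 TPM at 25°C and 59.5 ± 12.5 TPM at 28°C (SD, n = 3). The changes were 2.06, 3.48, and 3.93 (SE 0.23, adjusted p = 2.77e-06, 9.96e-09, and 6.8e-09). CK itself rose with warmth, by 1.60 from 22 to 28°C (adjusted p = 5.7e-05). The ratio of mean TPM between Si and CK was 15.5, 21.1, and 19.9, which differ less from each other than the log2(TPM + 1) values do. PAP2 is 87.1% identical to its neighbour MYB114 over 778 aligned bases. MYB114 and MYB113, looked at for this reason and not by the rule for naming genes, were at most 0.61 and 0.86 TPM.

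The late enzymes of anthocyanin synthesis stayed near 0 in the samples with high PAP2. DFR (dihydroflavonol reductase) reached at most 0.57 TPM in any sample, LDOX (leucoanthocyanidin dioxygenase) 0.81 TPM, TT19 (a glutathione transferase needed for anthocyanin storage) 0.58 TPM, and UF3GT (an anthocyanin xylosyltransferase) 0.24 TPM. None passed the filter, so none was tested. LDOX is listed at 0 in all CK samples at 22 and 25°C, and its Si samples had 0.63, 0.43, and 0.33 (22°C), 0.44, 0.81, and 0.59 (25°C), and 0.15, 0.32, and 0.37 TPM (28°C). DFR had 0.04, 0.04, and 0.07 TPM in Si at 28°C, where PAP2 was at its highest. The bHLH partner TT8 was between 0 and 0.46 TPM, with every Si sample above the CK samples of its temperature, as for LDOX. PAP1, the closest relative of PAP2 among the members, reached 1.61 TPM at most. PAP1 is listed at 0 in all CK samples at 22°C and had 0.63, 1.61, and 1.39 TPM in Si, and it was below 1 TPM in all samples at 25 and 28°C. BAN, the first gene of proanthocyanidin synthesis, was at most 0.13 TPM, and of 4 seed coat markers TT2, TT12, and TT10 were at most 0.12 TPM. The fourth, the proton pump gene AHA10, was at 0.99 to 1.93 TPM and changed by 0.29, 0.16, and 0.38 with Si (adjusted p = 0.0479, 0.246, and 0.0139).

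**Figure D4:**
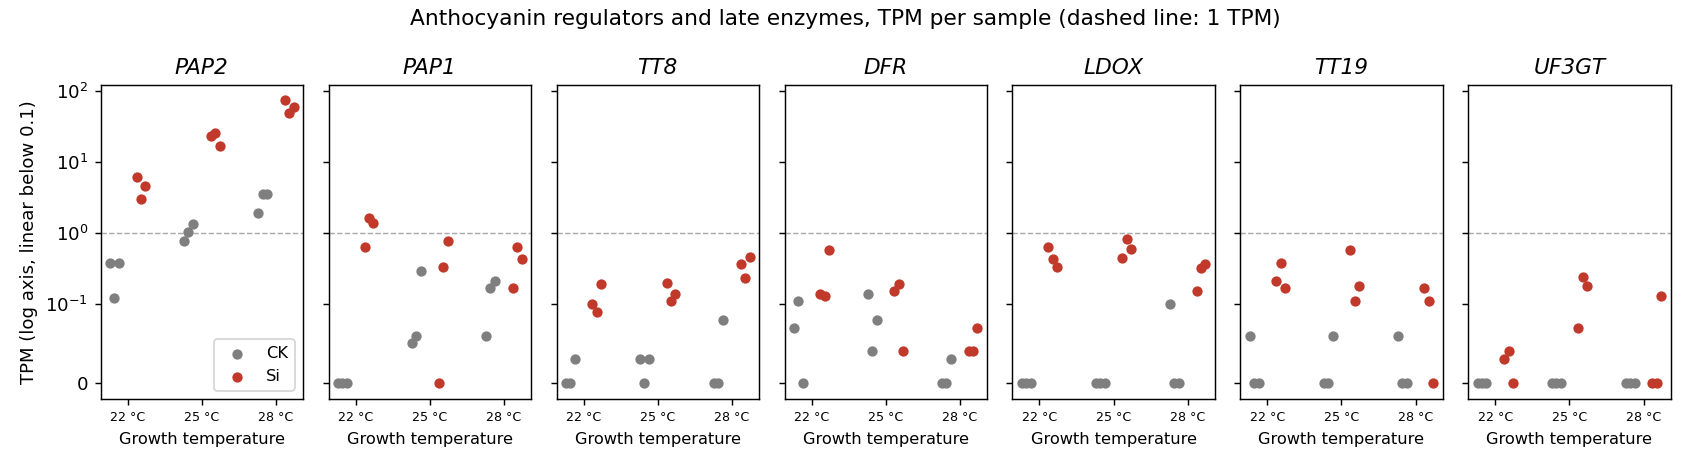
TPM of the regulators PAP2, PAP1, and TT8 and of the enzymes DFR, LDOX, TT19, and UF3GT in each sample (points, CK grey and Si red) on a logarithmic axis that is linear below 0.1, with a dashed line at 1 TPM. PAP2 in Si lies between 2.98 and 72.6 TPM, whereas DFR, LDOX, TT19, UF3GT, and TT8 lie below the line in all 18 samples.

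The 2 anthocyanin enzymes that passed the filter differed. 3AT1, an anthocyanin acyltransferase, had 0.68, 0.59, and 0.98 (22°C), 1.38, 1.36, and 1.57 (25°C), and 3.46, 3.34, and 3.91 TPM (28°C) in CK. Si samples had 1.99, 1.92, and 2.53 (22°C), 4.91, 3.94, and 4.18 (25°C), and 6.13, 5.97, and 7.42 TPM (28°C). It rose by 0.85, 1.13, and 0.71 (SE 0.12, adjusted p = 2.57e-05, 1.07e-06, and 0.000137) with no overlap of the groups. The value is uncertain, because 3AT1 is 96.7% identical over 1244 bases to 3AT2 (AT1G03495), which was itself higher in Si. UGT75C1, a glucosyltransferase of anthocyanins, ranged from 0 to 2.73 TPM and changed by -0.33, -0.34, and 0.00, with no test passed (adjusted p = 0.391, 0.366, and 1). It overlaps the oppositely oriented AT4G14100 over 230 transcript bases, and the level of that gene was not looked at, so its values are uncertain too.

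MYBL2, a repressor of anthocyanin synthesis, was the only tested member that fell with Si in the unscaled values. After median-of-ratios scaling PAL3 and CYP98A3 at 22°C, C4H and CYP98A3 at 25°C, and F3'H at 28°C fell too, and 4, 2, and 2 members fell after quantile normalization. MYBL2 had 185, 225, and 195 TPM in CK and 145, 138, and 108 TPM in Si at 22°C. It had 195, 186, and 198 TPM in CK and 69.3, 108, and 137 TPM in Si at 25°C, and 171, 199, and 168 TPM in CK and 62.0, 120.2, and 131 TPM in Si at 28°C. All Si samples were below all CK samples, with changes of -0.63, -0.93, and -0.84 (SE 0.25, adjusted p = 0.0381, 0.00417, and 0.00902). It was a downregulated DEG after median-of-ratios scaling at 25°C (-1.22) and 28°C (-1.09). At 22°C it passed the adjusted p in 13 of 18 removals of a sample, and at 28°C its change was -0.51 without Si replicate 1. This sample and Si replicate 1 at 25°C had the lowest MYBL2 values of all samples. They also had the lowest values of all samples for KFB20 (83.2 TPM at 28°C, 73.8 TPM at 25°C) and KFB-CHS (88.4 and 88.9 TPM in the same order), F-box genes for the breakdown of PAL and CHS that were named after their values were seen. For both of these genes replicate 1 was the lowest of its group in all 6 groups, CK included. The part of these samples in the MYBL2 result was not tested further.

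Without the fungus, the step to 25°C changed few of these genes and the step to 28°C more. Between 22 and 25°C in CK, 0 of the 28 tested members were DEGs in either direction, beside 0.424% of all genes that were upregulated and 0.145% that were downregulated. By the adjusted p alone 3 rose and 2 fell (8.74 and 2.40% of all genes). Between 22 and 28°C in CK, 6 were upregulated (4.24% of all genes) and 1 was downregulated (0.649%). The 6 were CAD5 (1.45), PAP2 (1.60), 3AT1 (1.39), UGT78D1 (1.06), 4CL2 (1.02), and UGT78D2 (1.02), with adjusted p from 6.91e-07 to 0.00119. The last 3 stood near 1, with 0.95 to 0.98 for UGT78D1 without replicate 3 of CK at 22°C or replicate 3 of CK at 28°C, 0.93 to 0.97 for 4CL2 without replicate 2 or 3 of CK at 22°C or replicate 2 of CK at 28°C, and 0.93 to 0.99 for UGT78D2 without replicate 2 or 3 of CK at 22°C or replicate 2 of CK at 28°C. After median-of-ratios scaling 3 were upregulated and 1 (PAL3) downregulated, and after quantile normalization 3 were upregulated and 3 (PAL3, F3H, and UGT75C1) downregulated. The root markers PYK10 and CASP1 rose as well, by 2.04 and 1.79 from 22 to 28°C in CK, and their part in the result was not tested.

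Within Si, CHS (1.12) and PAP2 (2.06) were upregulated from 22 to 25°C (0.843% of all genes) and 0 were downregulated (1.32%). From 22 to 28°C 10 members were upregulated (5.27% of all genes) and 0 downregulated (1.37%). Beside PAP2 (3.47) and CHS (2.22) these were 4CL2 (1.89), CAD5 (1.73), PAL1 (1.31), 3AT1 (1.25), MYB111 (1.17), FAH1 (1.1), C4H (1.02), and UGT78D1 (1.01). Several rested on Si replicate 3 at 22°C, without which 6 were upregulated and the values were 0.87 for C4H, 0.92 for UGT78D1, 0.98 for FAH1, and 0.99 for MYB111. UGT78D1 was also at 0.96 without Si replicate 2 at 22°C and 0.99 without Si replicate 3 at 28°C, and C4H at 0.97 without the latter.

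Whether the change with Si differed between temperatures was tested directly as an interaction. Compared with 22°C, the change was larger for 8 of 28 members at 25°C and for 10 at 28°C, and smaller for 0 at either. Of all genes, 4.37% had a larger and 5.36% a smaller value at 25°C, and 6.92 and 10.2% at 28°C. The 22°C samples enter both interactions, which are thus not independent. CHS had the largest, 1.42 ± 0.23 (SE, adjusted p = 0.00244) at 25°C and 2.30 ± 0.23 (SE, adjusted p = 5.55e-05) at 28°C. PAP2 followed with 1.41 ± 0.33 (SE, adjusted p = 0.0149) and 1.87 ± 0.33 (SE, adjusted p = 0.00166), but with a pseudocount of 0.1 these were 0.69 (adjusted p = 0.388) and 0.71 (adjusted p = 0.343), and its CK samples at 22°C were at most 0.38 TPM. F3H had 0.73 ± 0.20 (SE, adjusted p = 0.0333) and 1.22 ± 0.20 (SE, adjusted p = 0.00111), and FAH1 0.77 ± 0.15 (SE, adjusted p = 0.00584) and 0.72 ± 0.15 (SE, adjusted p = 0.00425). CHS and FAH1 kept both calls in every removal of a sample, as did CHI at 25°C and C4H and F3H at 28°C. For UGT78D1, CAD5, FLS1, and MYBL2 no interaction passed the test, with adjusted p from 0.498 to 0.883 for CAD5 and from 0.472 to 0.863 for UGT78D1, which does not show that their changes were equal. Among the lignin genes 4 passed the test at 25°C and 4 at 28°C, and 0 of the 3 flavonol and 2 anthocyanin enzymes tested did, a difference between branches that was not tested.

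**Figure D5:**
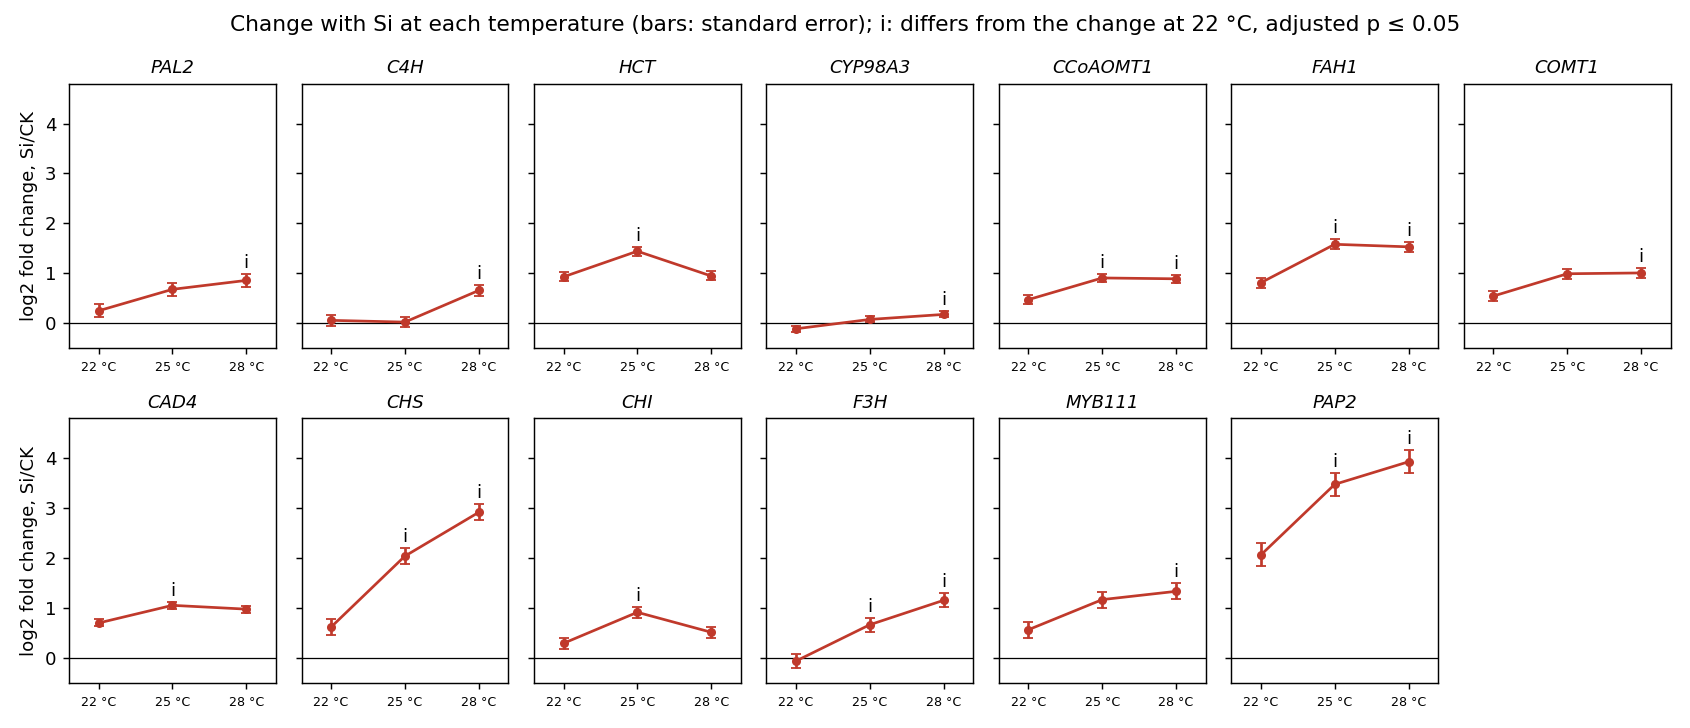
Log2 fold change of Si against CK at 22, 25, and 28°C (points, with the standard error as bars) for the 13 members whose change at 25 or 28°C differed from that at 22°C, marked with i at an adjusted p of at most 0.05. CHS climbs from 0.62 to 2.92 and PAP2 from 2.06 to 3.93, whereas HCT and CHI have their highest value at 25°C.

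Most genes that supply phenylalanine rose as well. Of 9 genes for the entry to the shikimate pathway (DHS) and for the last step to phenylalanine (ADT, arogenate dehydratase), all 9 were tested. At 22, 25, and 28°C, 5, 5, and 4 were upregulated DEGs (8.00, 9.43, and 7.95% of all genes), with 0 downregulated (1.34, 2.69, and 1.72%). By the adjusted p alone 7, 8, and 7 rose and 0, 0, and 1 fell, the last being DHS2 at 28°C (-0.13, adjusted p = 0.0113). By that rule 47.4, 47.8, and 43.5% of all genes rose and 10.7, 13.5, and 11.9% fell. DHS1 was at 36.3 ± 2.22 TPM for CK and 87.0 ± 8.21 TPM for Si at 22°C (SD, n = 3) and changed by 1.24, 1.37, and 1.11 (adjusted p = 2.31e-08, 4.01e-09, and 6.19e-08). DHS3 changed by 1.11, 1.33, and 1.39 (adjusted p = 3.23e-08, 2.57e-09, and 4.24e-09). ADT4 rose by 1.05, 1.1, and 1.35, ADT5 by 1.18 at 22°C, and ADT6 by 2.22 and 1.42 at 25 and 28°C, where its CK samples were between 0 and 1.86 TPM. These are enzymes of primary metabolism whose product also serves protein synthesis. For this list and those below, the other scalings and the removals of samples were not examined gene by gene. Calls just past 1, such as ADT4 at 22°C, were thus not rechecked.

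Further genes of lignin and sinapate ester synthesis moved in both directions. Of 16 genes, 15 were tested, 1, 2, and 3 were upregulated, and 1 was downregulated at each temperature, beside 8.00, 9.43, and 7.95% of all genes up and 1.34, 2.69, and 1.72% down, so that the upregulated count at 22°C was no larger a share than that of all genes. The downregulated gene was SNG1, which moves sinapate from glucose to malate, with 409, 442, and 460.2 TPM in CK and 158, 207, and 187 TPM in Si at 22°C. At 25°C it had 411, 405, and 337 TPM in CK and 155, 149, and 137 TPM in Si, and at 28°C 336, 278, and 273 TPM in CK and 131, 118, and 123 TPM in Si. The groups were far apart at each temperature, with changes of -1.25, -1.38, and -1.24 (SE 0.10, adjusted p = 1.67e-07, 3.53e-08, and 1.93e-07). UGT84A2, which makes the sinapoylglucose that SNG1 uses, went the other way, with 2.98 ± 0.42 TPM for CK and 7.31 ± 1.19 TPM for Si at 22°C (SD, n = 3). It rose by 1.06, 1.75, and 1.29 (adjusted p = 6.98e-06, 2.93e-08, and 1.1e-06). At 28°C REF1, an aldehyde dehydrogenase that gives ferulate and sinapate, rose by 1.27 and UGT72E1, a glucosyltransferase of monolignol aldehydes, by 1.28. The laccase gene LAC11 rose by 1.02 at 25°C, with values up to 2.48 TPM.

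Other flavonoid genes rose with Si. Of 12 genes, 8 were tested, and 3, 5, and 4 were upregulated (8.00, 9.43, and 7.95% of all genes), with 0 downregulated (1.34, 2.69, and 1.72%). By the adjusted p alone 8, 7, and 7 rose and 0 fell, beside 47.4, 47.8, and 43.5% of all genes that rose and 10.7, 13.5, and 11.9% that fell. RHM1, which makes UDP-rhamnose, the sugar donor of UGT78D1, had 25.6 ± 3.28 TPM for CK and 63.4 ± 3.58 TPM for Si at 28°C (SD, n = 3). It rose by 1.27, 1.71, and 1.28 (adjusted p = 5.95e-07, 1.88e-08, and 6.04e-07). UGT89C1, which adds a second rhamnose to flavonols, rose by 1.19 at 22°C. CHIL, a chalcone isomerase-like protein that aids CHS, had 0.93 ± 0.08 TPM for CK and 4.40 ± 0.16 TPM for Si at 28°C. It rose by 1.14, 1.23, and 1.49 (adjusted p = 2.81e-06, 9.05e-07, and 2.43e-07). CHIL was below 1 TPM in every CK sample, so it passed the filter through its Si samples only. It was not the only gene of this list that needed its Si samples to pass, so the counts are not independent of the filter. 3AT2 was upregulated at 25 and 28°C (1.06 and 1.04), just past the threshold. Its value is uncertain as well, because it is 96.7% identical over 1244 bases to 3AT1.

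Among 25 other regulators, 19 were tested, and 0, 4, and 3 were upregulated at 22, 25, and 28°C, with 0 downregulated, beside the same shares of all genes, which the count at 22°C did not reach. By the adjusted p alone 8, 8, and 9 rose and 1, 3, and 2 fell. By that rule 47.4, 47.8, and 43.5% of all genes rose and 10.7, 13.5, and 11.9% fell. MYB4, a repressor of C4H and of sinapate ester synthesis, had 2.99 ± 0.63 TPM for CK and 13.9 ± 1.40 TPM for Si at 25°C (SD, n = 3). It rose by 0.83, 1.91, and 1.46 (adjusted p = 0.00416, 2.4e-06, and 4.95e-05), and its relative MYB7 by 1.26 and 1.14 at 25 and 28°C. SPL9, which is known to hinder the anthocyanin MYB complex, rose by 1.29 at 25°C, and MYB15, a regulator of lignin in defense, by 1.99 at 28°C (adjusted p = 0.00126).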

How the data were processed

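The authors deposited 1 table of TPM values (a length-scaled transcript abundance, given to 2 decimals) for 33039 genes and all 18 samples. The study's methods give RSEM on reads mapped to TAIR10, and the sample protocol names SeqPrep, Sickle, HISAT2, and StringTie, with versions not given in the sources used here. Since TPM holds no read depth, no count model was run, and precision rests on 3 replicates per group. The p-values measure the spread between these samples.

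Here, log2(TPM + 1) was fitted for the 20044 genes that reached 1 TPM in 3 or more samples, with 6 group means in limma 3.58.1 (R 4.3.3, variance trend, 12 residual degrees of freedom), with Benjamini-Hochberg adjustment over all genes tested and two-sided tests. DEGs had an adjusted p up to 0.05 with a log2 fold change beyond 1 in size, and for interactions the adjusted p decided. DESeq2 was not used, since TPM values are not counts.

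The members, branches, and gene lists were chosen with earlier results of these data known. Every member may be named, with the value of every sample for members called in any comparison, and of the other lists at most the 3 DEGs with the largest change per comparison of Si with CK. Names, coordinates, and upstream windows of 250 bases came from RefSeq TAIR10.1, whose transcript lengths equal the table's for all 38 members, and similar transcripts were found with BLAST 2.17.0. Figures were drawn with matplotlib 3.10.9.

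The settings varied one at a time were the pseudocount (0.1 or 0.5), the filter (none or 5 TPM), the samples fitted (those of the comparison alone), the scaling (median of ratios or quantile), a block for the replicate number, the fold threshold (none), and the removal of each sample in turn. For single genes, the results under these settings were examined for the members only. The code was tested on simulated data. Comparisons of 28 with 25°C were not run.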

Additional observations from a re-analysis of the deposited data

Results flagged for a closer look

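The change with Si differed from that at 22°C by the interaction test for 8 members at 25°C and 10 at 28°C, and these are the results to look at again. At 25°C the differences in log2 fold change were 1.42 for CHS, 1.41 for PAP2, 0.77 for FAH1, 0.73 for F3H, 0.62 for CHI, 0.51 for HCT, 0.43 for CCoAOMT1, and 0.35 for CAD4. At 28°C they were 2.30 for CHS, 1.87 for PAP2, 1.22 for F3H, 0.77 for MYB111, 0.72 for FAH1, 0.61 for PAL2, 0.60 for C4H, 0.46 for COMT1, 0.42 for CCoAOMT1, and 0.29 for CYP98A3. All 18 were above 0.

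Of these 18 results, 9 kept an adjusted p of at most 0.05 in every removal of a sample and 9 did not. At 25°C HCT had an adjusted p above 0.05 without replicate 1 of CK at 25°C or replicate 1 or 2 of Si at 25°C (up to 0.053). CCoAOMT1 was above it without replicate 1 of CK at 22°C, replicate 2 or 3 of Si at 22°C, replicate 1, 2, or 3 of CK at 25°C, or replicate 1 or 2 of Si at 25°C (up to 0.0809), and CAD4 without replicate 1 or 2 of CK at 22°C, replicate 3 of Si at 22°C, replicate 1 or 3 of CK at 25°C, or replicate 1 or 2 of Si at 25°C (up to 0.0874). For F3H at 25°C this held without replicate 1 or 3 of CK at 22°C, replicate 1 or 3 of Si at 22°C, replicate 2 or 3 of CK at 25°C, or replicate 1 or 3 of Si at 25°C (up to 0.0827). At 28°C PAL2 had an adjusted p above 0.05 without replicate 1 or 3 of CK at 22°C, replicate 3 of Si at 22°C, replicate 1, 2, or 3 of CK at 28°C, or replicate 2 or 3 of Si at 28°C (up to 0.0767), and CYP98A3 without replicate 3 of CK at 22°C, replicate 3 of Si at 22°C, replicate 2 or 3 of CK at 28°C, or replicate 1 of Si at 28°C (up to 0.0783). The same held at 28°C for CCoAOMT1 without replicate 1 of CK at 22°C, replicate 2 or 3 of Si at 22°C, replicate 2 or 3 of CK at 28°C, or replicate 1 of Si at 28°C (up to 0.0717) and for COMT1 without replicate 2 of CK at 22°C, replicate 2 or 3 of CK at 28°C, or replicate 1 or 3 of Si at 28°C (up to 0.0735). MYB111 lost its result without replicate 2 or 3 of CK at 22°C, replicate 2 or 3 of Si at 22°C, replicate 1 or 2 of CK at 28°C, or replicate 1 or 3 of Si at 28°C (up to 0.0733), and its values were below 3 TPM throughout. Its result was lost under 13 alternatives in all, 8 of them these removals. The MYB111 ratio of mean TPM between Si and CK was 6.48 at 22°C and 5.82 at 28°C, so it was not larger at 28°C. Its CK samples at 22°C were at most 0.14 TPM.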

How the results depend on the processing

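No direction of a called result turned under any alternative that tested the gene. Of 62 calls of single genes 31 stayed past their threshold under every alternative in which the gene was tested. A gene dropped by the 5 TPM filter, such as 4CL2 or F3H, was not tested there and was not counted as lost. Of the 62 calls, 16 were lost with median-of-ratios scaling, 19 with quantile normalization, and 22 in 1 or more removals of a sample. TPM gives no depth, so the noise of genes near 1 TPM is known only from 3 replicates.

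With a pseudocount of 0.1, upregulated members numbered 6 at 22°C with Si and 1 at 25°C within CK, and downregulated ones 2 at 28°C within CK. The branch medians then were 0.76 (general), 0.89 (flavonol), and 1.27 (anthocyanin) at 22°C, 0.99 (early flavonoid), 1.27 (flavonol), and 1.43 (anthocyanin) at 25°C, and 1.15, 1.49, and 0.53 at 28°C. With 0.5 there were 5 upregulated members at 22°C, and medians of 0.48 (anthocyanin) at 22°C, 0.48 (anthocyanin) at 25°C, and 0.98 (early flavonoid), 1.15 (flavonol), and 0.15 (anthocyanin) at 28°C. When only the groups compared were fitted, 4 interactions were called at 25°C and 5 at 28°C.

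Median-of-ratios scaling gave 6 upregulated and 1 downregulated member at 25°C, 1 downregulated at 28°C, and 3 upregulated at 28°C within CK. Medians for lignin, early flavonoid, and flavonol genes were 0.25, -0.032, and 0.40 at 22°C, and with general genes first they were 0.45, 0.70, 0.56, and 0.63 at 25°C and 0.69, 0.70, 0.62, and 0.73 at 28°C. Quantile normalization gave 5 upregulated and 1 downregulated at 25°C, 7 upregulated at 28°C, 3 upregulated and 3 downregulated at 28°C within CK, and 6 upregulated at 28°C within Si. Its medians for general, lignin, early flavonoid, and flavonol genes were 0.11, 0.39, -0.17, and 0.28 at 22°C and 0.45, 0.84, 0.43, and 0.59 at 25°C, with 0.21 for anthocyanin, and at 28°C 0.65 (general), 0.49 (early flavonoid), 0.51 (flavonol), and 0.025 (anthocyanin). Without a threshold on the fold change, 18, 22, and 24 members rose and 1, 1, and 1 fell with Si, 3 rose and 2 fell at 25°C and 16 rose and 2 fell at 28°C within CK, and within Si 15 rose at 25°C and 23 rose and 1 fell at 28°C. Of all genes, 47.4, 47.8, and 43.5% rose and 10.7, 13.5, and 11.9% fell with Si. Within CK, 8.74% rose and 2.40% fell at 25°C, and 41.2% rose and 7.81% fell at 28°C. Within Si, 16.6% rose and 7.06% fell at 25°C, and 39.0% rose and 10.5% fell at 28°C. The scalings change these values by their construction, since they remove the shift of all genes.

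When each sample was left out in turn, 2 to 5 members were upregulated at 22°C, 0 to 1 downregulated at 25 and 28°C, 3 to 6 up- and 0 to 1 downregulated at 28°C within CK, and 6 to 12 upregulated at 28°C within Si. Interactions numbered 4 to 11 at 25°C and 5 to 11 at 28°C. Medians ran from 0.47 to 0.68 (lignin, 22°C), 0.22 to 0.32 (anthocyanin, 22°C), 0.78 to 1.06 (flavonol, 28°C), and 0.078 to 0.17 (anthocyanin, 28°C). Nothing in the labels ties replicates across groups by number. Deviations of same-numbered samples correlated between -0.07 and 0.18 (median 0.05, 8 of 45 pairs over 0.1), and those of other numbers between -0.20 and 0.10 (median -0.02, 0 of 90 over 0.1), so the numbers were not used to pair samples, although same-numbered samples were somewhat more alike. With the number as a block, 3, 10, and 12 members were upregulated with Si and 10 and 12 interactions were called.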
